A study of Homo sapiens with 9 samples.

Results

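The data described here are 6 of the 9 RNA-seq libraries of the series: 3 from a CoCl2-tolerant line and 3 from a low-glucose-tolerant line of HCT-15, set against each other directly. HCT-15 is a long-established line of human colorectal adenocarcinoma, and all groups carry the genotype label WT. Both tolerant lines were derived from it by growth under stepwise stronger CoCl2 or stepwise stronger glucose limitation until the cells tolerated the condition. Each tolerance is 1 derived line, so a difference between the lines may belong to the stress or to the derivation, which cannot be told apart here. The untreated HCT-15 control (3 libraries) was grown in the same basal medium, RPMI1640 with fetal bovine serum. It entered no test between the lines. Its levels are given as a background, some values of each line against it are given beside the direct comparison, and scaling factors were set over all 9 libraries. A brefeldin A-tolerant line that the labels also mention was not analysed here. The CoCl2 and glucose concentrations, and whether the agents were present at harvest, are not stated in the labels. Nothing says that libraries of 1 group came from separate cultures, so p-values measure only the spread between libraries, which may be technical. The series' title names inositol hexaphosphate, endoplasmic reticulum stress, senescence and chemotherapy, and the comparison asks what separates a hypoxia-mimic programme from a glucose-starvation programme in the same parental line.

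Cobalt ions inhibit the prolyl hydroxylases that mark hypoxia-inducible factor (HIF) for destruction in oxygenated cells. HIF then accumulates and switches on genes of glycolysis, pH control and blood vessel growth. Glucose shortage acts differently: it deprives the endoplasmic reticulum (ER) of sugar for N-glycans, misfolded proteins accumulate there, and the unfolded protein response raises chaperones. Both stresses can also activate the integrated stress response, in which phosphorylation of eIF2alpha slows general translation while the transcription factor ATF4 is made.

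Assigned counts per library ran from 25178615 to 27829153 in the CoCl2-tolerant line and from 29971930 to 30115866 in the low-glucose-tolerant line, so that 3 counts equal 0.102 to 0.12 CPM, the count scaled to a fixed library size. The first principal component separated the lines and held 85.8% of the variance. Low-glucose-tolerant replicate 2 stood apart on the second component (6.37% of the variance), at -25.4 against 3.22 and 20.8 for the others of its line. Of 23 intestinal markers looked for, 19 were in the count files, and 14 of these were under 1 CPM in the CoCl2-tolerant line and 13 in the low-glucose-tolerant line. CDX2 and TFF3, defining intestinal genes, were at or near 0, while the simple epithelial keratins KRT8, KRT18 and KRT19 carried most of the summed marker level (1410 to 1700 CPM and 2530 to 3430 CPM). Fibroblast markers summed to 644 to 750 CPM, 156 to 196 CPM and, in the control, 2490 to 2530 CPM, mostly from THY1 and COL1A1. These marker levels do not bear out the colorectal label of the line, whose identity was not tested, nor was their part in any result.

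Below, a fold change is the log2 ratio of CoCl2-tolerant over low-glucose-tolerant from edgeR's quasi-likelihood test, ± its standard error. A positive value means higher in the CoCl2-tolerant line, and a gene was called at a Benjamini-Hochberg adjusted p under 0.05. Levels are CPM scaled by TMM factors, and means carry the SD over n = 3 libraries. Of 36018 genes in the files, 16920 had enough counts to be tested, and 10035 of them (59.3%) were called. The CoCl2-tolerant line was higher for 4889 (28.9% of genes tested) and the low-glucose-tolerant line for 5146 (30.4%), with a median of -0.03 over all genes tested. At least 2-fold differences were called for 5181 genes (30.6%), 2861 higher in the CoCl2-tolerant line and 2320 higher in the low-glucose-tolerant line. Libraries of the lines did not overlap for 10855 genes (64.2%). At least 16-fold differences numbered 176, of which 103 were higher in the CoCl2-tolerant line. These shares are the background for every list below. Each list is described by its counts and its median, with no test of the list itself. Members were chosen from textbook roles, but with earlier results of these data known, so the counts are descriptions only.

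The lists parted in opposite directions. In the CoCl2-tolerant line, mitotic, HIF-target, replication and glycolysis genes were mostly higher. ER chaperones, epithelial genes, ribosomal proteins and ATF4 targets were mostly higher in the low-glucose-tolerant line.

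**Figure D1:**
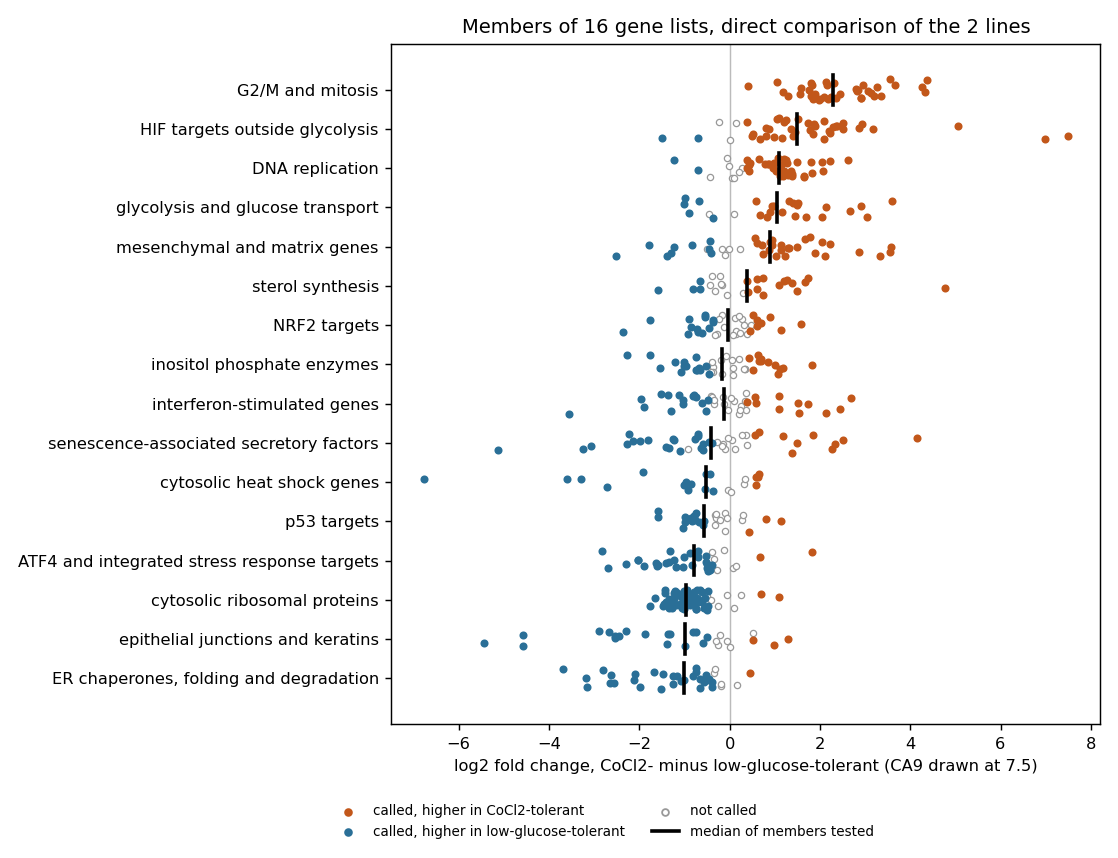
Members of 16 gene lists, 1 row per list, as points at their log2 fold change (CoCl2-tolerant minus low-glucose-tolerant). Orange points are members called higher in the CoCl2-tolerant line, blue points those called higher in the low-glucose-tolerant line and open points those not called, with a black bar at the median. All 38 mitotic genes lie to the right, and 29 of 35 ER chaperone and folding genes are called to the left. CA9, which had no count in the low-glucose-tolerant line, is drawn at an arbitrary position on the right.

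Among HIF targets outside glycolysis, 42 of 43 listed genes had enough counts, and 37 were called higher in the CoCl2-tolerant line against 2 higher in the low-glucose-tolerant line. Their median was 1.49, and 29 of the 37 differed at least 2-fold. The targets were assembled from genes known to carry a hypoxia response element or to follow HIF. That element has the core letters ACGTG, read on either strand. The promoters of PPFIA4, from this list, and of LDHA, from the glycolysis list below, are shown for the position of this core. Each is the 250 bases before a RefSeq start site (GRCh38.p14), written 5′ to 3′ on the gene's strand, with every match to ACGTG on either strand in capitals. A run of CACGTG holds the core on both strands at once.

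PPFIA4 (chr1:203026241-203026490, plus strand): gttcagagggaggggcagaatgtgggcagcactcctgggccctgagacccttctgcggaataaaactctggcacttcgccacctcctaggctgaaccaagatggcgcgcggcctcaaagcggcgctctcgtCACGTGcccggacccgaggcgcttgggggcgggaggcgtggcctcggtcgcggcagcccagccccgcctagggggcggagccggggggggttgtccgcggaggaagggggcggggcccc
LDHA (chr11:18394313-18394562, plus strand): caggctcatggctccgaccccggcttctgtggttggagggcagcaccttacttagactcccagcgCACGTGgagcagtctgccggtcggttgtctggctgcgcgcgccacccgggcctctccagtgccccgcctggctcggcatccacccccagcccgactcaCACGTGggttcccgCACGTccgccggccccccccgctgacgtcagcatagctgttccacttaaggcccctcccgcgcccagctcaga

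In the PPFIA4 window the letters CACGTG occurred once. The LDHA window held CACGTG at 2 places and ACGTG on the opposite strand at 1 more, while the window of a second LDHA start site (chr11:18396101-18396350) held none. Over the list, 73.3% of the 30 HIF targets with a promoter window held ACGTG, as did 56.5% of 23 glycolysis genes, 48.4% of 31 ER chaperone and folding genes, which were mostly lower in the CoCl2-tolerant line, and 35.5% of 31 mitotic genes, against 28.4% of 11694 genes tested and 21.7% of all 27305 genes with a window. Because the lists were drawn from known targets, these shares describe the lists and are not evidence about this comparison.

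PPFIA4 (chromosome 1, 203026498 to 203078740), which encodes a liprin scaffold protein and overlaps no other exon, had the largest fold change towards the CoCl2-tolerant line among the genes with at least 5 CPM there and no overlap between lines. It stood at 129.5, 96.9 and 96.3 CPM in the CoCl2-tolerant libraries and at 0.442, 1.34 and 0.760 CPM in the low-glucose-tolerant libraries. The fold change was 6.98 ± 0.29 (adjusted p = 1.03e-09), and the control level of 24.1 ± 0.182 CPM lay between the lines. MIR210HG, the host transcript of the hypoxia-induced microRNA miR-210, followed the same order at 16.03 ± 2.92 and 0.327 ± 0.150 CPM (5.60 ± 0.29, adjusted p = 4.49e-09). RIMKLA, which joins N-acetylaspartate and glutamate, was at 36.4 ± 1.07 and 1.09 ± 0.297 CPM.

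ADM, the vasodilator peptide adrenomedullin (chromosome 11, 10304680 to 10307397), was at 97.2, 89.4 and 96.4 CPM in the CoCl2-tolerant line and 11.6, 8.87 and 10.8 CPM in the low-glucose-tolerant line. Its fold change was 3.18 ± 0.16 (adjusted p = 3.73e-09). The control lay below both lines, at 6.79 ± 0.579 CPM. CA9, a cell-surface carbonic anhydrase that buffers pH in hypoxic cells, was read in all CoCl2-tolerant libraries, at 1.93, 3.26 and 2.15 CPM (202 counts). In the low-glucose-tolerant libraries it had no count at all, which makes it at least 71.0-fold higher in the CoCl2-tolerant line against a floor of 3 counts over the group. The control libraries held 12 CA9 counts together, and 38.5% of the CA9 exon length overlaps another gene, so some reads may belong to the neighbour.

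Other HIF targets differed less. BNIP3, a mitophagy receptor named after its values were seen, was at 396 ± 29.5 and 119 ± 16.8 CPM (1.74 ± 0.15). PLOD2, a collagen lysyl hydroxylase, was at 214 ± 28.5 and 27.9 ± 6.10 CPM (2.94 ± 0.18), and PPP1R3C, a glycogen-targeting phosphatase subunit, at 32.7 ± 1.73 and 4.49 ± 0.441 CPM (2.86 ± 0.16). VEGFA, the vascular growth factor, showed a smaller step, 211 ± 8.79 against 121 ± 5.33 CPM (0.81 ± 0.13, adjusted p = 0.000105). The 2 targets called the other way, named after their values were seen, were NDUFA4L2, a mitochondrial complex subunit paralogue (4.66 ± 0.335 against 13.1 ± 1.31 CPM, -1.49), and ANGPTL4, a lipoprotein lipase inhibitor that PPAR factors also induce (104 ± 7.73 against 168 ± 27.8 CPM, -0.69).

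The mRNAs of the HIF subunits themselves moved little by comparison. HIF1A was at 295, 435 and 355 CPM and 256, 251 and 183 CPM (0.65 ± 0.17, adjusted p = 0.00518), and both lines lay below the control at 712 ± 52.1 CPM. EPAS1, which encodes HIF-2alpha, was at 710.2 ± 36.8 and 466 ± 105 CPM (0.61 ± 0.16). ARNT, the shared partner subunit, was not called (-0.33 ± 0.17, adjusted p = 0.11). The oxygen-sensing hydroxylases EGLN1 (0.80 ± 0.16), EGLN2 (1.35 ± 0.19) and EGLN3 (2.35 ± 0.38) were higher in the CoCl2-tolerant line, whereas VHL, the ubiquitin ligase subunit that reads their mark, was lower there (-0.77 ± 0.14). HIF protein was not measured in these libraries.

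Glycolysis followed the HIF list: 19 of 26 tested genes (27 listed) were higher in the CoCl2-tolerant line and 5 in the low-glucose-tolerant line, with a median of 1.06. LDHA, lactate dehydrogenase A (chromosome 11, 18394388 to 18408425), stood at 3434, 3310.4 and 3409 CPM against 577, 472 and 557 CPM. Its fold change was 2.66 ± 0.15 (adjusted p = 8.14e-09), and the control, at 1623 ± 24.5 CPM, lay between the lines. PGK1, phosphoglycerate kinase, gave 1262, 963 and 1012 CPM against 239.6, 224 and 269.8 CPM (2.14 ± 0.16, adjusted p = 8.3e-08). Again no library of one line reached the range of the other, as for 64.2% of all genes tested.

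ENO2, the neuronal enolase isoform, was at 478 ± 77.2 and 58.3 ± 4.98 CPM (3.03 ± 0.16). The bifunctional enzymes PFKFB4 (2.91 ± 0.16) and PFKFB3 (2.05 ± 0.15), which set the level of the phosphofructokinase activator, were also higher in the CoCl2-tolerant line, as was PDK1, the kinase that keeps pyruvate out of the TCA cycle (126 ± 21.2 against 35.02 ± 4.29 CPM, 1.85 ± 0.16). Glucose transporters went both ways. SLC2A1 was higher in the CoCl2-tolerant line (812 ± 80.1 against 327 ± 32.2 CPM, 1.31 ± 0.14), while SLC2A3, a high-affinity transporter, was higher in the low-glucose-tolerant line (26.9, 31.2 and 30.2 against 59.4, 63.1 and 55.0 CPM, -1.01 ± 0.14, adjusted p = 3.49e-05). HK2, the inducible hexokinase, differed by 0.59 ± 0.13. Of 25 TCA cycle genes, 6 had the higher level in the CoCl2-tolerant line and 4 in the low-glucose-tolerant line (median -0.01), the 4 ranging from 2 without CoCl2-tolerant replicate 2 or 3 to 7 without low-glucose-tolerant replicate 2. The pentose phosphate pathway gave 2 (1 without CoCl2-tolerant replicate 3) and 4 of 8.

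A further large difference lay in genes whose regulators respond to glucose. TXNIP and ARRDC4 are arrestin-domain proteins that restrain glucose uptake, and both are textbook targets of the MondoA and ChREBP factors, which respond to glucose phosphates and bind paired E-boxes (CACGTG and near relatives). The ARRDC4 promoter is printed because it holds this letter run once, in capitals; 11.1% of genes tested hold CACGTG in such a window and 7.73% of all genes.

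ARRDC4 (chr15:97960453-97960702, plus strand): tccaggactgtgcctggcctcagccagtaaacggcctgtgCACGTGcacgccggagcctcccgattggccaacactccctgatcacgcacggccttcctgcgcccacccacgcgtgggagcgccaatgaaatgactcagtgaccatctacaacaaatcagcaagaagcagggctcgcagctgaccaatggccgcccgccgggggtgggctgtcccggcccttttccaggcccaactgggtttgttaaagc

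TXNIP (chromosome 1, 145992435 to 145996600) was at 287, 301 and 309.6 CPM in the CoCl2-tolerant line and at 4.08, 3.53 and 3.44 CPM in the low-glucose-tolerant line. The fold change was 6.34 ± 0.17, with the smallest adjusted p of all genes tested (3.4e-11), and the control at 63.8 ± 1.57 CPM lay between. ARRDC4 (chromosome 15, 97960698 to 97973838) repeated the order at 24.8, 30.6 and 27.02 CPM against 0.578, 0.514 and 0.470 CPM (5.71 ± 0.21, adjusted p = 6.96e-10). Against the control both lines changed, in opposite directions: TXNIP by 2.23 and -4.11, ARRDC4 by 2.31 and -3.40 in the CoCl2-tolerant and low-glucose-tolerant line. These values share the control libraries and come from a single fit of all 9 libraries.

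Among the other starvation genes, DEPP1, a FOXO-induced autophagy regulator, was at 30.4 ± 2.79 and 0.835 ± 0.103 CPM (5.18 ± 0.20), and ARRDC3, another arrestin-domain gene, at 338 ± 50.6 and 65.1 ± 16.7 CPM (2.38 ± 0.19). KLF15, a fasting-responsive transcription factor, had the opposite pattern at 0.0535 ± 0.0927 and 1.78 ± 0.267 CPM, that is, nearly absent from the CoCl2-tolerant line. The list as a whole did not lean: 5 of 17 tested genes (20 listed) were higher in the CoCl2-tolerant line and 6 in the low-glucose-tolerant line, with a median of 0.05.

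**Figure D2:**
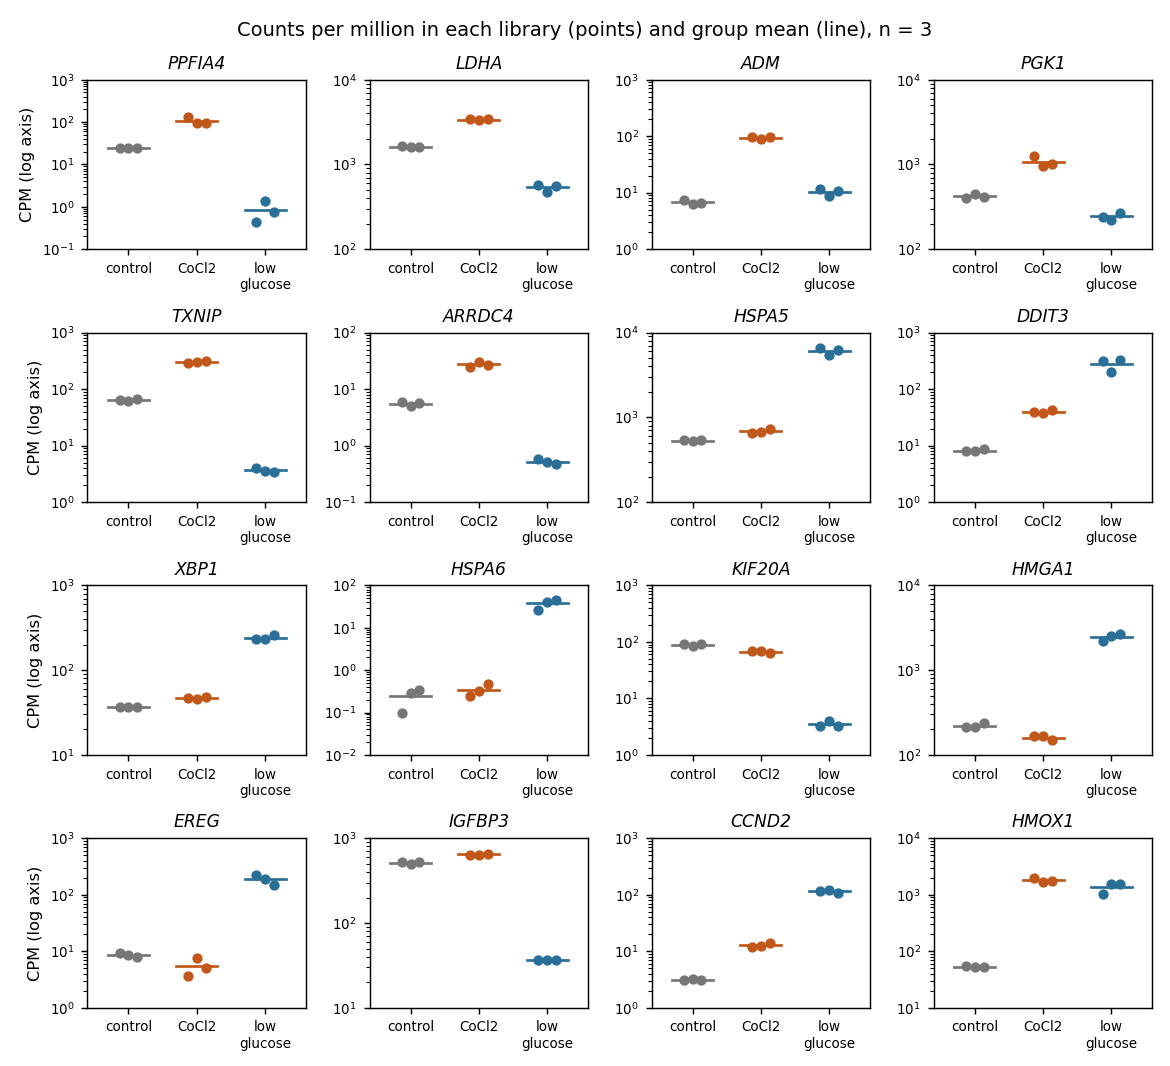
CPM (log axis) in each library of the control (grey), CoCl2-tolerant (orange) and low-glucose-tolerant (blue) groups for 16 genes, with a line at the group mean of 3 libraries. TXNIP runs from 287 to 309.6 CPM in the CoCl2-tolerant line to 3.44 to 4.08 CPM in the low-glucose-tolerant line. HSPA5 goes the other way, from 657 to 727 CPM to 5439.9 to 6652 CPM. The points of the 2 tolerant lines overlap in no panel, HMOX1 included, as for 64.2% of all genes tested.

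On the ER side the order reversed. Of 35 tested ER chaperone, folding and degradation genes (36 listed), 29 were higher in the low-glucose-tolerant line and 1 in the CoCl2-tolerant line, with a median of -1.01. The unfolded protein response sensor ATF6 acts on an ER stress response element, a CCAAT box and the letters CCACG separated by 9 bases. The HSPA5 promoter is shown because it carries this arrangement, capitalised below.

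HSPA5 (chr9:125241344-125241593, minus strand): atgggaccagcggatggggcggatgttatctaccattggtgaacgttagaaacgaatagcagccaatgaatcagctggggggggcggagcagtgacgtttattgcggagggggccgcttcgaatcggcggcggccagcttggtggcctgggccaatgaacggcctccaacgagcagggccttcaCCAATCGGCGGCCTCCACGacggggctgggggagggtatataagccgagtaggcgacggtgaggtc

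The full element, on either strand, was in the window of 22.6% of 31 ER genes, against 0.137% of genes tested and 0.0916% of all genes. The CCAAT box alone was far more common: 87.1% of the ER genes, 80.6% of 31 mitotic genes and 40.6% of genes tested held it. These searches were added after the values were seen, and a match is not a measured binding site.

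HSPA5 encodes BiP, the ER Hsp70 chaperone first known as a glucose-regulated protein (chromosome 9, 125234853 to 125241330, minus strand). It stood at 657, 669 and 727 CPM in the CoCl2-tolerant line and at 6652, 5439.9 and 6254 CPM in the low-glucose-tolerant line. The fold change was -3.16 ± 0.15 (adjusted p = 3.11e-09), and the control, at 532 ± 9.25 CPM, was close to the CoCl2-tolerant line. SDF2L1, a BiP cofactor, was at 5.48 ± 1.40 and 70.98 ± 18.5 CPM (-3.70 ± 0.24). DNAJB9, another BiP cofactor, was at 10.2 ± 1.56 and 92.9 ± 12.1 CPM (-3.19 ± 0.17). HERPUD1, part of the ER degradation machinery, was at 71.2 ± 2.93 and 448 ± 45.1 CPM (-2.65 ± 0.14).

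Secreted and lumenal ER stress proteins moved the same way. MANF was at 25.9 ± 1.37 and 152 ± 35.9 CPM (-2.55 ± 0.18), CRELD2 at 18.3 ± 0.839 and 114 ± 18.4 CPM (-2.64 ± 0.16), and calreticulin (CALR) at 860.1 ± 28.2 and 2764 ± 246 CPM (-1.68 ± 0.14). Exceptions, named after their values were seen, were PDIA5, the 1 member higher in the CoCl2-tolerant line (0.44 ± 0.14, adjusted p = 0.0151, a call lost without CoCl2-tolerant replicate 2 or 3), and P4HB, a disulfide isomerase that was not called (1526 ± 129.9 against 1369.9 ± 145 CPM, adjusted p = 0.359).

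Sensors and effectors of the response followed only in part. XBP1, whose mRNA is spliced by the sensor IRE1, was at 47.2, 45.9 and 47.6 CPM in the CoCl2-tolerant line and 233, 234 and 261 CPM in the low-glucose-tolerant line (-2.37 ± 0.13, adjusted p = 1.03e-08). ERN1, which encodes IRE1, was at 5.85 ± 0.527 and 27.98 ± 8.77 CPM (-2.26 ± 0.21), and ATF6 differed by -0.85 ± 0.14. EIF2AK3, the gene of the third sensor PERK, was at 23.3 ± 1.01 and 20.3 ± 3.67 CPM and was not called (adjusted p = 0.314). In all, 5 of 10 tested sensors and factors were higher in the low-glucose-tolerant line and 0 in the CoCl2-tolerant line. Splicing of XBP1 cannot be read from gene counts.

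ATF4 and integrated stress response targets were higher in the low-glucose-tolerant line for 28 of 36 tested genes and higher in the CoCl2-tolerant line for 2, with a median of -0.78. DDIT3, the pro-apoptotic factor CHOP, was at 38.7, 37.0 and 42.3 CPM in the CoCl2-tolerant line and 311, 200.04 and 327 CPM in the low-glucose-tolerant line (-2.83 ± 0.19, adjusted p = 3.73e-08). The control was lower than both, at 8.12 ± 0.425 CPM, and 39.6% of the DDIT3 exon length overlaps another gene. Each line against the shared control gave 2.28 and 5.10 for the CoCl2-tolerant and low-glucose-tolerant line.

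The pseudokinase TRIB3, which dampens ATF4, was at 159.97 ± 16.9 and 599 ± 71.98 CPM (-1.91 ± 0.15). NUPR1 (-2.69 ± 0.22), ATF3 (-2.30 ± 0.14) and CEBPB (-2.02 ± 0.16), which are stress-induced transcription regulators, were also higher in the low-glucose-tolerant line. ATF4 mRNA itself differed by -0.71 ± 0.16, at 597 ± 78.7 and 976 ± 166 CPM. ASNS, asparagine synthetase, was at 2.18 ± 0.295 and 5.44 ± 0.823 CPM (-1.32 ± 0.21), and 44.6% of its exon length overlaps another gene.

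Some ATF4 targets stood apart, and these were named after their values were seen. STC2, a secreted glycoprotein that HIF also induces, was higher in the CoCl2-tolerant line at 838 ± 63.8 against 236 ± 15.04 CPM (1.83 ± 0.14). CHAC1, a glutathione-degrading enzyme (42.9 ± 6.85 and 40.6 ± 7.22 CPM, adjusted p = 0.714), and SLC7A11, the cystine transporter (105 ± 16.5 and 115 ± 31.4 CPM, adjusted p = 0.556), were not called, and both were above the control levels of 5.81 ± 0.561 and 18.1 ± 0.509 CPM. Serine and one-carbon enzymes were mixed, with 7 of 15 higher in the low-glucose-tolerant line, among them PSPH (-1.27 ± 0.14) and the mitochondrial SHMT2 (-1.27 ± 0.15), and 4 higher in the CoCl2-tolerant line, among them the cytosolic SHMT1 (0.89 ± 0.14).

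**Figure D3:**
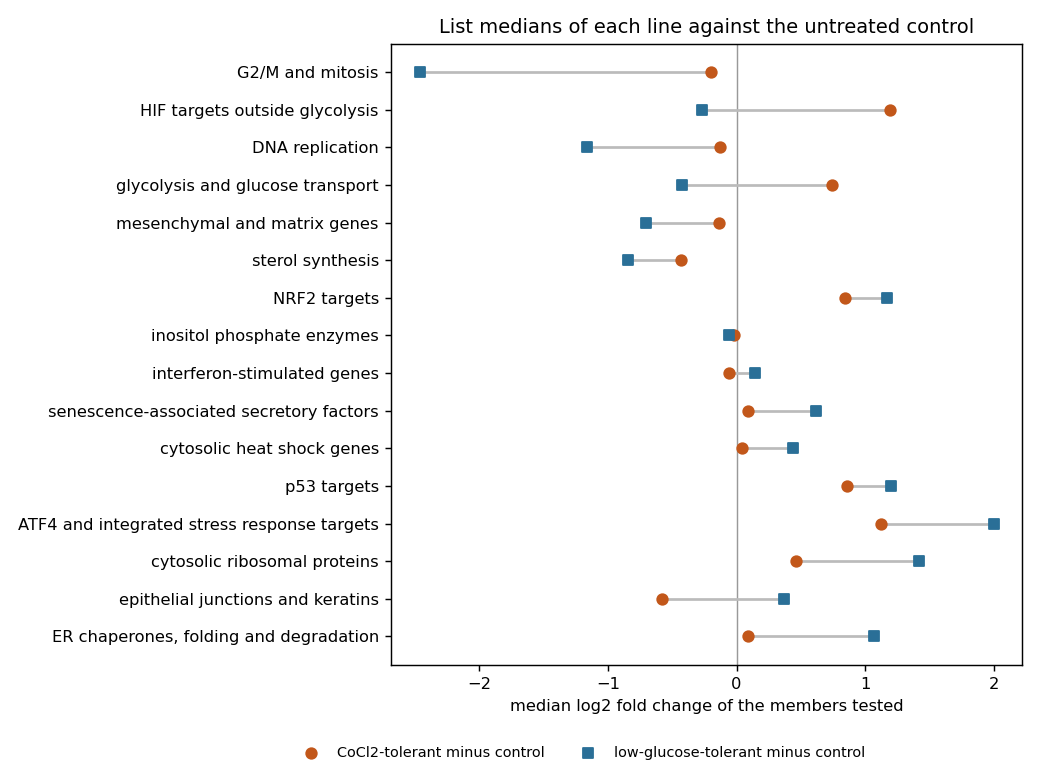
Median log2 fold change of the tested members of 16 lists in the CoCl2-tolerant (orange circles) and low-glucose-tolerant (blue squares) line, each against the untreated control, from a single fit of all 9 libraries. Both lines share the control libraries. ATF4 target medians are 1.12 and 2.0, HIF target medians 1.19 and -0.27, and ER chaperone medians 0.09 and 1.07.

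The medians against the control show from which side each difference came. For HIF targets and glycolysis the CoCl2-tolerant line lay above the control (1.19 and 0.74) and the low-glucose-tolerant line below it (-0.27 and -0.42). For ER chaperones the CoCl2-tolerant line was near the control (0.09) and the low-glucose-tolerant line above (1.07). For ATF4 targets both lay above, at 1.12 and 2.0. All genes tested had medians of 0.04 and 0.05.

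Cytosolic heat shock genes were higher in the low-glucose-tolerant line for 13 of 21 and in the CoCl2-tolerant line for 4, with a median of -0.53. HSPA6, a strictly stress-induced Hsp70, was at 0.241, 0.315 and 0.459 CPM in the CoCl2-tolerant line and 26.5, 41.3 and 46.1 CPM in the low-glucose-tolerant line. Its fold change was -6.78 ± 0.30 (adjusted p = 1.56e-09), and the CoCl2-tolerant values are close to the level of a few counts. The near-identical HSPA1A (-3.29 ± 0.25) and HSPA1B (-3.60 ± 0.20) moved the same way, but reads can be split between them by the counting. DNAJB1 (-1.93 ± 0.16) and the small heat shock protein CRYAB (-2.71 ± 0.20) were higher in the low-glucose-tolerant line as well.

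NRF2 targets did not separate the lines as a list: 8 of 36 were higher in the CoCl2-tolerant line and 13 in the low-glucose-tolerant line, with a median of -0.03. HMOX1, haem oxygenase, was at 2013, 1671 and 1744 CPM in the CoCl2-tolerant line and 1026, 1539 and 1581 CPM in the low-glucose-tolerant line, over a control level of 53.6 ± 1.19 CPM. The lines did not overlap, but the difference was not called (0.39 ± 0.17, adjusted p = 0.0652). It became a call in several alternatives, for example at 0.0363 without low-glucose-tolerant replicate 2. NQO1, a quinone reductase, was at 588 ± 35.5 and 714 ± 57.8 CPM (-0.28 ± 0.13, adjusted p = 0.0859, against 0.0294 when low-glucose-tolerant replicate 2 was left out). OSGIN1, another NRF2-linked gene, was clearly higher in the low-glucose-tolerant line (41.6 ± 7.12 against 215 ± 39.97 CPM, -2.37 ± 0.18), and the reductase AKR1C3 was higher in the CoCl2-tolerant line (1.58 ± 0.15).

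Metallothioneins bind zinc, copper and other metals. MT1E was at 446, 458 and 470.5 CPM in the CoCl2-tolerant line and 1411, 919.6 and 1266 CPM in the low-glucose-tolerant line (-1.39 ± 0.16, adjusted p = 7.71e-06), and MT1M differed by -2.72 ± 0.22. MT2A was at 1288 ± 46.2 and 1851 ± 476 CPM, and its call (-0.52 ± 0.18, adjusted p = 0.0204) was lost when single libraries were left out (adjusted p of 0.051 to 0.0904). The MT1 genes are near-identical copies on chromosome 16, where many genes were higher in the low-glucose-tolerant line. Of 20 tested metal and iron genes (25 in the files), 12 were higher in the low-glucose-tolerant line and 4 in the CoCl2-tolerant line. The count of 12 was 5 with the genes of chromosomes 5, 7, 15 and 16, and so the MT1 genes themselves, left out.

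Cell division gave the most uniform list. All 38 genes of G2/M and mitosis were higher in the CoCl2-tolerant line, 37 of them at least 2-fold, with a median of 2.28. KIF20A, a kinesin of cytokinesis, was at 68.7, 68.2 and 64.2 CPM there and 3.30, 4.04 and 3.18 CPM in the low-glucose-tolerant line (4.25 ± 0.17, adjusted p = 7.64e-10). MKI67, the Ki-67 proliferation antigen, was at 207, 249.5 and 207 CPM and 22.3, 30.9 and 18.96 CPM (3.20 ± 0.19), and the control at 433 ± 23.5 CPM. Spindle and kinetochore genes CENPE (4.36 ± 0.26), ASPM (4.33 ± 0.22), CENPF (3.67 ± 0.17) and DLGAP5 (3.56 ± 0.21) had no overlap between lines, like 64.2% of all genes tested. In bulk RNA, fewer dividing cells and less of these RNAs per cell cannot be told apart.

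Of 44 DNA replication genes, 35 had the higher level in the CoCl2-tolerant line and 2 in the low-glucose-tolerant line, with a median of 1.1. RRM2, the ribonucleotide reductase subunit, was at 110.1 ± 4.84 and 17.9 ± 3.13 CPM (2.62 ± 0.16), UHRF1, a maintenance methylation factor, at 76.1 ± 10.2 and 16.4 ± 1.98 CPM (2.21 ± 0.16), and MCM10 and ORC6 differed by 1.84 ± 0.18 and 1.81 ± 0.15. The 2 exceptions, named after their values were seen, were the licensing factor CDT1 (-1.23 ± 0.15) on chromosome 16 and the polymerase subunit POLD2 (-0.70 ± 0.15) on chromosome 7. Against the control, the mitotic and replication medians were -0.20 and -0.13 in the CoCl2-tolerant line and -2.46 and -1.16 in the low-glucose-tolerant line.

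G1 regulators were split, 11 of 19 being higher in the CoCl2-tolerant line and 6 in the low-glucose-tolerant line. CCND2, cyclin D2, was at 12.1, 12.4 and 14.02 CPM in the CoCl2-tolerant line and 117, 123 and 108 CPM in the low-glucose-tolerant line (-3.18 ± 0.15, adjusted p = 2.31e-09), against 3.13 ± 0.114 CPM in the control. Cyclin D1 (CCND1) was at 441 ± 30.6 and 494 ± 48.99 CPM and was not called (adjusted p = 0.322). The inhibitor CDKN1A, which encodes p21, was at 514, 473 and 485 CPM and 793, 890.1 and 946 CPM (-0.84 ± 0.14, adjusted p = 0.000124), both above the control at 184 ± 2.81 CPM. CDKN1C, which encodes p57, differed by -2.25 ± 0.30, while CDKN2C, which encodes p18, was higher in the CoCl2-tolerant line (2.04 ± 0.20). Of 28 p53 targets, 15 were higher in the low-glucose-tolerant line and 3 in the CoCl2-tolerant line (median -0.57), among them PLK3 (-1.58 ± 0.16) and the death gene BBC3 (-1.02 ± 0.16).

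Markers linked to senescence, a lasting arrest with altered chromatin and secretion, also differed. LMNB1, lamin B1, which senescent cells lose, was at 95.6, 93.4 and 98.0 CPM in the CoCl2-tolerant line and 21.04, 18.3 and 20.6 CPM in the low-glucose-tolerant line (2.26 ± 0.14, adjusted p = 2.15e-08). HMGA1, an architectural protein found in senescence-associated chromatin and in undifferentiated tumour cells, was at 167, 166 and 149 CPM and 2199, 2524 and 2699 CPM (-3.95 ± 0.16, adjusted p = 7.64e-10). HMGA2 followed it at 68.7 ± 7.65 and 396 ± 68.3 CPM (-2.53 ± 0.17), whereas HMGB2 was higher in the CoCl2-tolerant line (1.70 ± 0.18). The 13 chromatin and lysosome markers as a list counted 6 higher in the CoCl2-tolerant line and 2 in the low-glucose-tolerant line.

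Secretory factors went both ways. Of 42 tested (51 listed), 21 were higher in the low-glucose-tolerant line and 10 in the CoCl2-tolerant line (6 without the genes of chromosomes 5, 7, 15 and 16), with a median of -0.42. EREG, the EGF-family ligand epiregulin, was at 3.61, 7.46 and 5.09 CPM in the CoCl2-tolerant line and 228, 192 and 147 CPM in the low-glucose-tolerant line (-5.13 ± 0.26, adjusted p = 4.34e-09). Its relative AREG, amphiregulin, was at 5.77 ± 0.185 and 55.03 ± 8.57 CPM (-3.25 ± 0.17), and the chemokine CXCL8 at 16.9 ± 3.78 and 81.7 ± 24.4 CPM (-2.27 ± 0.22). GDF15, a stress cytokine, was at 354 ± 10.9 and 897 ± 107 CPM (-1.34 ± 0.14).

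In the opposite direction, IGFBP3, a binding protein for insulin-like growth factors, was at 635, 643 and 661 CPM in the CoCl2-tolerant line and 36.2, 36.6 and 36.3 CPM in the low-glucose-tolerant line (4.15 ± 0.14, adjusted p = 4.16e-10). IL6 was at 111 ± 1.15 and 48.6 ± 7.29 CPM (1.19 ± 0.15). The list split by gene, with EGF ligands and CXCL8 on one side and IGFBP3 and IL6 on the other.

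MAPK immediate early and feedback genes went both ways. The growth factor-induced feedback genes ETV4 (-3.23 ± 0.16), ETV5 (-2.95 ± 0.14), SPRY4 (-2.86 ± 0.19) and PHLDA1 (-2.13 ± 0.14) were higher in the low-glucose-tolerant line. The immediate early genes FOS and EGR1 were higher in the CoCl2-tolerant line, FOS at 33.9, 29.9 and 28.9 CPM against 2.04, 2.19 and 2.06 CPM (3.88 ± 0.17) and EGR1 by 2.95 ± 0.20. MYC, another immediate early gene, went against these at 135 ± 7.33 and 353 ± 26.4 CPM (-1.39 ± 0.13). As a list, 13 of 26 tested genes were higher in the low-glucose-tolerant line and 8 in the CoCl2-tolerant line.

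The translation apparatus was higher in the low-glucose-tolerant line. Of 79 cytosolic ribosomal protein genes, 70 were higher there and 2 in the CoCl2-tolerant line, with a median of -0.97. RPL13 was at 1113, 827 and 1005 CPM in the CoCl2-tolerant line and 3242, 2546 and 4181 CPM in the low-glucose-tolerant line (-1.76 ± 0.19), and RPS2 differed by -1.66 ± 0.18. Other mRNAs with the terminal oligopyrimidine tract that couples them to mTOR signalling gave 18 of 22 higher in the low-glucose-tolerant line and 0 in the CoCl2-tolerant line, led by the initiation factor EIF4B (-1.62 ± 0.13), the elongation factor EEF2 (-1.55 ± 0.16) and the host RNAs GAS5 (-1.22 ± 0.17) and SNHG8 (-1.88 ± 0.23). The 2 exceptions, RPL36A and RPS10, named after their values were seen, were at 3.80 ± 0.388 and 1.58 ± 0.187 CPM in the CoCl2-tolerant line and 1.80 ± 0.429 and 0.974 ± 0.150 CPM in the low-glucose-tolerant line, and 39.4% of the RPS10 exon length overlaps another gene. The count of 2 fell to 1 under DESeq2, with no filter on low counts, with the replicate number as a block and when CoCl2-tolerant replicate 2 or 3 or low-glucose-tolerant replicate 2 or 3 was left out, and to 0 under the filter of at least 5 CPM in 3 libraries. Ribosomal protein genes held 4.3 to 5.38% of counts in the CoCl2-tolerant libraries, 7.29 to 10.9% in the low-glucose-tolerant libraries and 3.54 to 3.69% in the control. Many of these genes have near-identical processed copies, among which the counting could split reads.

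Genes of the mitochondrial genome, the ribosomal and transfer RNA genes among them, held 4.64 to 6.67% of counts in the CoCl2-tolerant line and 4.74 to 5.2% in the low-glucose-tolerant line. Of its 13 mRNAs, 8 were not called, 2 were higher in the CoCl2-tolerant line and 3 in the low-glucose-tolerant line, counts that moved when single libraries were left out, and MT-ND3 was the 1 with an at least 2-fold difference (173 ± 34.6 against 662 ± 89.6 CPM, -1.94 ± 0.17). Nuclear-encoded respiratory subunits were mostly not called (50 of 71), with 13 higher in the low-glucose-tolerant line and 8 in the CoCl2-tolerant line. The 13 became 26 without low-glucose-tolerant replicate 2, 8 without CoCl2-tolerant replicate 2 and 22 with the length and GC trend of each library removed.

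Sterol synthesis leaned towards the CoCl2-tolerant line. Sterol genes were higher there for 14 of 26 and in the low-glucose-tolerant line for 4, or 7 without CoCl2-tolerant replicate 1 (median 0.39), and both lines lay below the control (medians of -0.43 and -0.84). TM7SF2, a sterol reductase, was an exception at -1.58 ± 0.21. Fatty acid synthesis gave 5 (9 under scaling by library totals) and 2 of 15 (1 without CoCl2-tolerant replicate 2 or 3 or low-glucose-tolerant replicate 3). These are 33.3% and 13.3%, against 28.9% and 30.4% of all genes tested, and 8 of the 15 were not called. SCD, the stearoyl-CoA desaturase of this list, was at 542 ± 21.9 and 128 ± 34.2 CPM (2.09 ± 0.18). Fatty acid oxidation gave 6 (3 without CoCl2-tolerant replicate 2) and 7 of 20, with the acyl-CoA dehydrogenase ACADVL higher in the CoCl2-tolerant line (1.02 ± 0.15) and the carnitine transferase CPT1A higher in the low-glucose-tolerant line (-1.08 ± 0.16).

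Epithelial junction and keratin genes were higher in the low-glucose-tolerant line for 18 of 27 tested genes and in the CoCl2-tolerant line for 3, with a median of -0.99. CDH1, E-cadherin, was at 1.44, 1.26 and 1.52 CPM in the CoCl2-tolerant line and 7.78, 9.77 and 6.88 CPM in the low-glucose-tolerant line (-2.53 ± 0.21, adjusted p = 3.16e-07), and both lines lay below the control at 17.8 ± 0.465 CPM. KRT18 was at 98.6 ± 9.17 and 571 ± 110.2 CPM (-2.54 ± 0.17), and the tight junction gene CLDN3 at 2.66 ± 0.264 and 17.1 ± 2.99 CPM (-2.68 ± 0.19). EPCAM was at 21.8 ± 1.99 and 55.7 ± 14.4 CPM (-1.36 ± 0.19).

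Mesenchymal and matrix genes went the other way, with 25 of 39 tested genes (48 listed) higher in the CoCl2-tolerant line and 9 in the low-glucose-tolerant line (median 0.89). COL7A1, the anchoring fibril collagen, was at 570.2 ± 60.6 and 47.6 ± 0.621 CPM (3.58 ± 0.15). COL1A1, the main fibrillar collagen, was at 269.98, 240.5 and 239.9 CPM and 19.5, 21.7 and 23.2 CPM (3.54 ± 0.15, adjusted p = 1.03e-09), yet the control was far above both at 1855 ± 27.4 CPM. COL4A1, a basement membrane collagen, had the same order, 1442 ± 64.6, 308 ± 68.2 and 2926 ± 43.5 CPM in the CoCl2-tolerant, low-glucose-tolerant and control libraries. The hemidesmosome integrin ITGB4, also on this list, went against it at 32.8 ± 3.72 and 187 ± 28.1 CPM (-2.51 ± 0.16). TGFBI, an adhesion protein induced by TGF-beta, was at 3027 ± 287 and 413 ± 28.9 CPM (2.87 ± 0.15). Vimentin (VIM) was slightly higher in the low-glucose-tolerant line (-0.41 ± 0.15, adjusted p = 0.0266), a call lost under scaling by library totals (0.0647) and when single libraries were left out.

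WNT genes counted 3 of 18 higher in the CoCl2-tolerant line and 7 in the low-glucose-tolerant line. The secreted antagonist SFRP1 was at 12.1 ± 0.854 and 1.34 ± 0.113 CPM (3.17 ± 0.19) and AXIN2, a feedback target, at 1.22 ± 0.221 and 0.278 ± 0.170 CPM (2.12 ± 0.41). DKK1, another antagonist (-2.98 ± 0.28), and the nuclear factor TCF7 (-1.64 ± 0.20) were higher in the low-glucose-tolerant line. Antagonists thus appeared on both sides.

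Inositol phosphate enzymes, which make and break down the inositol hexaphosphate of the series' title, did not lean as a list: of 41 tested, 12 were higher in the CoCl2-tolerant line and 15 in the low-glucose-tolerant line, with a median of -0.17. ITPKA, which phosphorylates inositol trisphosphate, was at 17.9, 13.1 and 16.6 CPM in the CoCl2-tolerant line and 74.4, 65.4 and 89.9 CPM in the low-glucose-tolerant line (-2.27 ± 0.17, adjusted p = 1.35e-07). Its paralogue ITPKC differed by -1.76 ± 0.16. ITPK1, a kinase further along the route, was at 47.8 ± 6.07 and 66.1 ± 6.32 CPM (-0.47 ± 0.15, adjusted p = 0.0139, or 0.0715 and 0.0879 without CoCl2-tolerant replicate 2 or 3).

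IPPK, which adds the last phosphate to give inositol hexaphosphate, was at 3.56 ± 0.395 and 5.74 ± 1.10 CPM (-0.69 ± 0.20, adjusted p = 0.00828), and 72.0% of its exon length overlaps another gene. MINPP1, the phosphatase that degrades inositol hexaphosphate, was at 33.6 ± 0.599 and 24.8 ± 2.51 CPM (0.44 ± 0.14, adjusted p = 0.0163), a call lost without CoCl2-tolerant replicate 2 (0.0678) or 3 (0.064). The inositol importer SLC5A3 was higher in the CoCl2-tolerant line (1.19 ± 0.19), as was the lipid phosphatase INPPL1 (1.11 ± 0.15). The phospholipases PLCD1 (-1.55 ± 0.16) and PLCG2 (-1.21 ± 0.15) were higher in the low-glucose-tolerant line. IP6K1 and IP6K2, which make inositol pyrophosphates, were not called (adjusted p = 0.795 and 0.685).

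For ER calcium, ITPR1, an inositol trisphosphate receptor, was at 34.01 ± 0.835 and 15.4 ± 6.45 CPM (1.14 ± 0.23). The ER calcium pump ATP2A2 was higher in the low-glucose-tolerant line (240.5 ± 15.8 against 609 ± 115 CPM, -1.34 ± 0.16), and so was the entry channel ORAI2 (-1.70 ± 0.14). Of 14 tested calcium genes, 4 had the higher level in the CoCl2-tolerant line and 7 in the low-glucose-tolerant line. A further pump gene, ATP2A1, was higher in the CoCl2-tolerant line at a low level (4.29 ± 0.613 against 1.61 ± 0.0431 CPM, 1.41 ± 0.21).

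Drug handling genes were divided, 5 of 26 being higher in the CoCl2-tolerant line and 9 in the low-glucose-tolerant line, or 5 without the genes of chromosomes 5, 7, 15 and 16. Thymidine phosphorylase (TYMP), which activates some fluoropyrimidines, was at 1.70 ± 0.237 and 12.7 ± 2.42 CPM (-2.91 ± 0.21), and uridine phosphorylase (UPP1) at 54.5 ± 6.29 and 250.3 ± 53.7 CPM (-2.20 ± 0.17). Thymidylate synthase (TYMS), the enzyme that fluorouracil blocks, was at 60.2 ± 1.11 and 31.1 ± 2.88 CPM (0.95 ± 0.14), and 46.6% of its exon length overlaps another gene, and thymidine kinase (TK1) differed by 2.06 ± 0.19. The efflux pump ABCB1 was not called (11.3 ± 1.27 and 9.46 ± 1.24 CPM, adjusted p = 0.196), while ABCG2 was low in both lines (1.68 ± 0.320 and 4.11 ± 0.893 CPM, -1.29 ± 0.24). CYP1A1, a target of the aryl hydrocarbon receptor, which shares the partner ARNT with HIF, was at 2.08 ± 0.171 and 17.9 ± 1.32 CPM (-3.10 ± 0.18).

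Several of the largest differences lay in genes not yet described. Higher in the low-glucose-tolerant line were VGF, a secreted neuropeptide precursor (5.62, 5.39 and 5.93 CPM against 200.1, 190.3 and 248 CPM, -5.24 ± 0.17), BHLHA15, a transcription factor of secretory cells that XBP1 induces (0.146 ± 0.0276 against 11.7 ± 1.41 CPM, -6.28 ± 0.27), and LAMP3, a lysosomal protein linked to the unfolded protein response (0.423 ± 0.102 against 37.2 ± 8.26 CPM, -6.43 ± 0.26). The growth factor midkine (MDK) was at 11.4 ± 0.627 and 334 ± 71.3 CPM (-4.87 ± 0.19), and thrombomodulin (THBD) at 0.979 ± 0.0303 and 38.1 ± 4.96 CPM (-5.28 ± 0.20). KLHDC7B, SLC4A10, TMIE and TOX2 were at 0.0600 ± 0.0721, 0.155 ± 0.109, 0.137 ± 0.119 and 0.241 ± 0.0787 CPM in the CoCl2-tolerant line and at 7.76 ± 1.19, 7.81 ± 1.88, 6.56 ± 1.45 and 7.11 ± 0.787 CPM in the low-glucose-tolerant line.

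SEMA6B, a semaphorin, reached its contrast from the other side: it was at 26.9 ± 1.37 CPM in the control, 47.8 ± 5.28 CPM in the low-glucose-tolerant line and 1.58 ± 0.242 CPM in the CoCl2-tolerant line (-4.92 ± 0.19). Higher in the CoCl2-tolerant line were CLVS1, a clathrin vesicle protein (13.8 ± 1.73 against 0.161 ± 0.129 CPM), CDH23, a cadherin (7.28 ± 2.65 against 0.174 ± 0.0678 CPM), and C2orf72 (10.1 ± 0.971 against 0.232 ± 0.0255 CPM). GOLGA8A, at 163 ± 11.3 and 5.14 ± 1.30 CPM (4.98 ± 0.20), belongs to a family of near-identical copies, so its value is uncertain.

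A few genes were counted at a low level in one line (means of 1.2 to 3.32 CPM) and were at or near 0 counts in the other. At such levels a switch cannot be told from a large graded difference. With at least 1 CPM in every library of one line and at most 3 counts summed over the other, 7 genes were on in the CoCl2-tolerant line and 4 in the low-glucose-tolerant line. Beside CA9, the first group held the semaphorin gene SEMA5B (at least 83.3-fold, 237 counts against 0), the non-coding IGFL2-AS1 and ITGA6-AS1 and the pseudogene KRT223P. It also held CPT1B, a muscle-type carnitine transferase of whose exon length 66.4% overlaps another gene. The last was the short microRNA locus MIR6075 on chromosome 5 (1510762 to 1510856), with 270 counts against 0 (at least 94.9-fold). The libraries were made from mRNA, and which transcript gave the MIR6075 reads was not tested. The second group was PRPH, a neuronal intermediate filament (168 counts against 1), MDFI, an inhibitor of myogenic factors, ATP6V0D2, a proton pump subunit, and LEF1, a nuclear WNT effector (105 counts against 2). The control libraries held at most 3 counts of 3 of these 4, and more than 3 counts of all 7 of the first group.

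Chromosomal position also separated the lines. Among 10482 well-counted autosomal protein-coding genes, the median log2 fold change was -0.63 on chromosome 7 and -0.59 on chromosome 16, where 63.8% and 59.9% of genes were higher in the low-glucose-tolerant line. Over all 10482 genes the median was -0.12, with 34.7% higher in the low-glucose-tolerant and 24.8% in the CoCl2-tolerant line. On chromosomes 5 and 15 the medians were 0.40 and 0.37, with 50.0% and 49.4% of genes higher in the CoCl2-tolerant line. The other autosomes lay between -0.26 and 0.11.

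**Figure D4:**
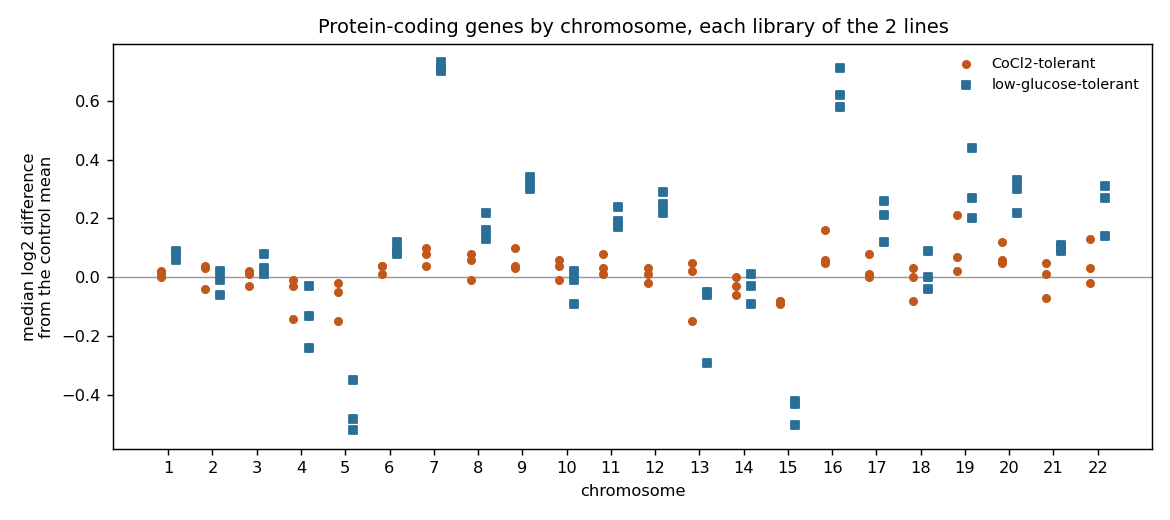
Median log2 difference from the control mean of the protein-coding genes of each autosome, in each library of the CoCl2-tolerant (orange circles) and low-glucose-tolerant (blue squares) line. The low-glucose-tolerant libraries lie at 0.70 to 0.73 on chromosome 7, 0.58 to 0.71 on chromosome 16, -0.52 to -0.35 on chromosome 5 and -0.50 to -0.42 on chromosome 15.

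The offset was in the low-glucose-tolerant libraries: on chromosome 7 they lay 0.73, 0.70 and 0.71 above the control mean, and the CoCl2-tolerant libraries 0.04, 0.08 and 0.10. On chromosome 5 the same libraries lay at -0.35, -0.48 and -0.52, and the CoCl2-tolerant libraries at -0.15, -0.02 and -0.05. DNA copy number was not measured, and its part in these offsets was not tested. With the genes of chromosomes 5, 7, 15 and 16 left out, 13894 genes were tested and 8029 called. List members on these chromosomes were removed as well, so each count below is of a shorter list and falls whatever the calls. The lists leaned the same way. In the CoCl2-tolerant line, 27 mitotic genes and 32 HIF targets were then higher. In the low-glucose-tolerant line, 20 ER genes, 24 ATF4 targets, 64 ribosomal protein genes and 12 epithelial genes were higher. Of the smaller counts, those higher in the CoCl2-tolerant line fell without these chromosomes from 5 to 3 for starvation genes, from 8 to 4 for respiratory subunits, from 6 to 3 for senescence chromatin markers and from 4 to 2 for calcium genes and for metal and iron genes.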

How the data were processed

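Raw read counts per gene were deposited by the authors, 1 file per library. Per the labels' protocols, total RNA was extracted with TRIzol, mRNA was taken from it and sheared, and cDNA libraries were sequenced on an Illumina NovaSeq. The submitters' processing notes name featureCounts, DESeq2 and the GRCh38 build. Which aligner, annotation and strand setting were used is not stated there, so reads of overlapping genes cannot be told apart, and the share of exon bases that a gene shares with others (GENCODE 29) is printed where it is large. All 9 count files and no other columns were used. The values are counts, summed over the libraries' assigned reads, and no row lacked a gene.

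The main test was edgeR 4.0.16 (glmQLFit and glmQLFTest, R 4.3.3) on the 6 libraries of the tolerant lines, with genes kept by filterByExpr, TMM factors set over all 9 libraries, and Benjamini-Hochberg adjustment over 16920 genes at 0.05. The common biological coefficient of variation was 15.2%. Values of each line against the control came from a separate fit of all 9 libraries. Alternatives were DESeq2 1.42.0, other scalings and filters, a replicate block, leaving out each library, leaving out mitochondrial and ribosomal genes and, added after the data were seen, leaving out chromosomes 5, 7, 15 and 16 and removing each library's length and GC trend. Counts and CPM carry no molecular identifiers, so floors of 3 counts cover counting error only. Symbols were found for 35938 of 36018 gene IDs in the name table and for 76 more in GENCODE 29. Promoter windows and coordinates of motifs are RefSeq's, on GRCh38.p14; gene positions are GENCODE 29's. The test was also run on counts simulated from the fit's own spread with few changed genes. In these data most genes tested were called, so that run does not check the calls here.

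The contrast, the 45 gene lists and the genes named were chosen with earlier results of these data known. Named genes include the 12 largest differences each way (at least 5 CPM in the higher line, called, no overlap, no pseudogenes). A set of genes named by symbol and up to 6 called members with the largest differences per list were added. Defining list members that were not called, such as EIF2AK3, IP6K1 and IP6K2, are also given, and the switched genes follow their own rule. Others are said to be chosen after their values were seen. No replicate in 1 group matched another within sampling noise (chi-square per degree of freedom of 8.36 to 74.1 within the tolerant lines and 2.31 to 6.87 within the control). Sex-linked markers, and a few more genes chosen by this rule, were left unreported.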

Additional observations from a re-analysis of the deposited data

How the results depend on the processing

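The number of genes called, 10035, was 9761 with DESeq2, 9869 under scaling by library totals, 11137 with no filter on low counts, 6895 of 11394 tested under a stricter filter that asked for 5 CPM in 3 libraries, and 11411 after each library's length and GC trend was removed. Leaving out single libraries gave 8738 to 10522. At least 2-fold calls numbered 5181, and 2653 under the stricter filter, where fewer genes were tested. In the other settings they ran from 4089 (without chromosomes 5, 7, 15 and 16) to 6380 (no filter), and from 5123 to 5518 when single libraries were left out. With the replicate number as a block, 9744 genes were called and 5182 at least 2-fold. No pairing by number was seen: residuals of same-numbered libraries correlated at -0.49, 0.252 and -0.0513, and those of different numbers at -0.525 to 0.434. Residuals were centred within each line of 3 libraries, so these values depend on each other and cannot decide whether the numbers pair the libraries. Every sign was retained for the 284 named genes in all settings that gave them a value. Most of the 284 were named for large called differences in these same libraries, so retained signs were largely fixed by that choice. Of the 284, 267 also stayed on the same side of the threshold, and 17 did not in at least 1 setting. HMOX1 and NQO1 became calls in some, and the others, such as FBP1, HLA-F, RPE, ITPK1, MINPP1, H2BC11, MT2A, MT-CYB, VIM, SCD5, MT-ND2, MT-CO1, MT-ND4 and RPIA, lost theirs in some; the cause was not tested. Of 90 list counts, 35 moved by over 1.5 times in some setting. With 3 libraries a line and 1 line per tolerance, genes under about 0.1 CPM cannot be compared.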

Other observations

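Immune genes went both ways within each list. Of all genes tested, 28.9% were higher in the CoCl2-tolerant line and 30.4% in the low-glucose-tolerant line. In the same order, the shares were 26.8% and 36.6% for interferon-stimulated genes and 33.3% and 38.1% for NF-kappaB targets. For MHC class I and peptide loading genes they were 22.2% and 38.9%. Of 41 tested interferon-stimulated genes, 11 had the higher level in the CoCl2-tolerant line and 15 in the low-glucose-tolerant line (median -0.13). IFIT1, an antiviral RNA sensor, was at 31.1 ± 1.96 and 9.37 ± 2.15 CPM in the CoCl2-tolerant and low-glucose-tolerant line (log2 fold change 1.73 ± 0.18), and the GTPase GBP1 at 63.95 ± 3.54 and 11.8 ± 2.17 CPM (2.44 ± 0.17). MX1, another antiviral GTPase, went the other way at 9.21 ± 0.536 and 34.2 ± 2.55 CPM (-1.89 ± 0.15). IRF9, a subunit of the interferon-activated factor ISGF3, was at 2.05 ± 0.146 and 0.315 ± 0.0803 CPM (2.69 ± 0.31), and 48.4% of its exon length overlaps another gene. NF-kappaB targets counted 7 and 8 of 21, with NFKBIZ higher in the CoCl2-tolerant line (1.92 ± 0.14). MHC class I and peptide loading genes counted 4 (2 without CoCl2-tolerant replicate 3 or low-glucose-tolerant replicate 1) and 7 of 18, with the peptidase ERAP2 higher in the CoCl2-tolerant line (1.66 ± 0.18) and HLA-E higher in the low-glucose-tolerant line (-0.82 ± 0.14).

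Autophagy genes had a median of -0.03, and 18 of 39 were not called. The low-glucose-tolerant line was higher for 15 (38.5%, against 30.4% of all genes tested). The CoCl2-tolerant line was higher for 6 (15.4%, against 28.9%). That 6 became 13 with the length and GC trend removed and 3 without low-glucose-tolerant replicate 3. The highest fold change in the list was 0.69, and the members given here were both higher in the low-glucose-tolerant line. MAP1LC3B, the LC3 protein that coats autophagosomes, was at 102 ± 8.09 and 291 ± 31.8 CPM (-1.52 ± 0.14), and the cargo receptor NBR1 at 72.6 ± 2.91 and 197 ± 16.8 CPM (-1.44 ± 0.13). Cell death genes counted 9 and 12 of 32. The caspase-8 inhibitor CFLAR (1.21 ± 0.14) and the BH3-only gene BMF (1.92 ± 0.26) were higher in the CoCl2-tolerant line, and the BH3-only gene BIK (-2.08 ± 0.30) and the caspase inhibitor XIAP (-0.97 ± 0.19) in the low-glucose-tolerant line.

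HOX genes, which record positional identity, were higher in the low-glucose-tolerant line for 16 of 36 and in the CoCl2-tolerant line for 5, led by HOXD8 at 7.21 ± 0.667 and 30.6 ± 2.81 CPM (-2.08 ± 0.16). The HOXA cluster lies on chromosome 7. Of 13 tested replication-dependent histone genes (36 in the files), 7 had the higher level in the CoCl2-tolerant line, such as H4C8 (4.47 ± 0.165 against 1.35 ± 0.190 CPM). The 7 became 2 under the stricter filter, where fewer genes were tested. The listed histone genes were low in both lines, summing to 76.8 to 90.9 CPM in the CoCl2-tolerant and 61.9 to 73.5 CPM in the low-glucose-tolerant libraries. Hexosamine and N-glycan precursor genes counted 8 (5 without CoCl2-tolerant replicate 2 or low-glucose-tolerant replicate 3) and 11 of 34 (median -0.09), with the rate-limiting hexosamine enzyme GFPT1 higher in the low-glucose-tolerant line at 122 ± 10.7 and 272 ± 37.8 CPM (-1.16 ± 0.15). Endothelial markers counted 0 and 1 of 2 (2 without CoCl2-tolerant replicate 3), and leukocyte markers 0 and 0 of 4 tested (1 higher in the CoCl2-tolerant line without low-glucose-tolerant replicate 2).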
